A study of Mus musculus with 8 samples.

Results

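The genes described here encode the enzymes and transporters of glycolysis and lactate handling, the oxygen-regulated transcription factor subunit Hif1a with the prolyl hydroxylases that act on it, and targets of the hypoxia response. They were chosen by name: 35 genes were named, with earlier results of these data known. Every array probe whose gene symbol is one of them was taken, with no use of its values in that step. Of the 35 genes, 30 were listed in the platform annotation with 45 probes. Of those, 25 genes with 34 probes were above background on enough arrays to be tested, against 9028 tested genes of 16593 named on the array.

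RNA was isolated from whole spleens in a lupus model called parent-into-F1, where cells of a donor strain are engrafted into an F1 hybrid recipient and react to it. All recipients were B6D2F1J mice, hybrids of the C57BL/6 and DBA/2 strains, 10 weeks of age, sampled on day 14 after engraftment. The engrafted cells came from a DBA donor for 4 arrays and a B10.D2 donor for the other 4, so both groups carry a graft and the donor strain is what the labels say differs; arrays of ungrafted recipients are not analysed here. B10.D2 is itself neither strain that the hybrid was made from, and the labels give neither the number of cells transferred nor whether replicates were separate mice, so that p-values cover no more than the variation among these 8 samples, some of which may be technical. In RNA of a whole organ, fewer cells that express a gene and less of its RNA per cell cannot be told apart.

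Glycolysis turns glucose into pyruvate in the cytosol, and lactate dehydrogenase can then turn pyruvate into lactate, which leaves the cell through monocarboxylate transporters. When oxygen is plentiful, prolyl hydroxylases mark HIF-1 alpha for destruction; when it is scarce, or when immune cells are activated, HIF-1 alpha accumulates and raises transcription of many glycolytic genes and of genes such as Vegfa. In the spleen, dividing lymphocytes are known to increase glucose uptake and glycolysis, and mature red cells, which lack mitochondria, live on glycolysis.

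Each array detected 12601 to 13320 probes above its own negative controls (detection p under 0.05). The median raw intensity of an array was 113.2 to 124.8 in the DBA donor group and 126.4 to 142.1 in the B10.D2 donor group, so the groups did not overlap before normalization. All values below are log2 intensities after quantile normalization unless another scaling is named, and they are compared between arrays for 1 probe, not between probes. Spleen markers were measured as labelled: 7 of 7 listed erythroid, 7 of 7 T cell, 6 of 7 B cell, 8 of 9 macrophage and 8 of 8 neutrophil markers were tested. Of fat markers, 2 of 6 listed were tested. A single array stood apart: on B10.D2 donor replicate 4, 9 of 9 listed genes of the exocrine pancreas were detected and were at their highest of the 8 arrays, 7 of them detected on no other. Cela2a, a pancreatic elastase, read 11.97 on that array and at most 4.67 on the others, Pnliprp1, a pancreatic lipase-related protein, read 11.15 against at most 4.72, and Clps, colipase, 11.11 against at most 4.71. Of these 9 genes only Cela1 was detected on the 4 arrays that testing required. The counts below are therefore also given without this array.

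None of the 25 tested genes passed the test between donors. The smallest limma adjusted p was 0.210 (Vegfa), where 0.0775% of all tested genes (7 of 9028; 0.0665% higher, 0.0111% lower) and 0.0695% of all tested probes (9 of 12950) passed; the ordinary per-probe statistic called 0 of the 25, and 0 of all 12950 probes. At an unadjusted limma p under 0.05 there were 2 of the 25 (8%), Vegfa and Eno3, both lower in DBA donor spleens, against 14.3% of all tested genes (8.15% lower and 6.14% higher). The 4 DBA donor and 4 B10.D2 donor arrays did not overlap for 1 of the 25 (4%), Vegfa, lower in DBA donor spleens, against 8.45% of all tested genes (4.76% lower). Neither count is therefore a result about the set. Without B10.D2 donor replicate 4, 0 of the 25 passed, 3 (Vegfa, Eno3 and Pfkm; 12%) had an unadjusted p under 0.05 against 18.3% of all tested genes, and 2 (Vegfa and Pdk1; 8%) did not overlap against 17.8%. Under quantile normalization with all arrays, the 95% confidence interval lay within 2-fold in either direction for 25 of 25 genes. It lay within 1.5-fold for 22, the exceptions being Pfkm, Pfkp and Hif1a. These intervals do not cover the choice of scaling. The median difference of all tested genes was -0.02 here and -0.18 when arrays were scaled to equal medians. The standard error of the log2 difference was 0.08 to 0.35, with a median of 0.12.

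The differences were small and mostly positive, though their sign depended on how arrays were scaled. The median log2 difference, DBA donor minus B10.D2 donor, was 0.10 over the 25 genes and -0.02 over all tested genes, and 17 of 25 genes had a positive difference (68%) against 46% of all tested genes. When arrays were scaled to equal medians instead, the median of all tested genes moved to -0.18 and that of the 25 genes to -0.07, with 7 of 25 positive against 17.9% of all tested genes. Relative to all tested genes the 25 genes thus stood 0.12 higher under quantile normalization and 0.10 higher under median scaling; without B10.D2 donor replicate 4 they stood 0.06 higher, with a median of 0.04 and 17 of 25 positive against 45.9%. Across the whole array, quantile normalization called 8 probes higher and 1 lower with the DBA donor, and median scaling called 27 higher and 598 lower. Within the set, the 19 glycolysis and lactate genes had a median difference of 0.11 (15 positive) and the 6 HIF and hypoxia genes one of -0.06 (2 positive). Under median scaling these medians were -0.07 and -0.16.

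**Figure D1:**
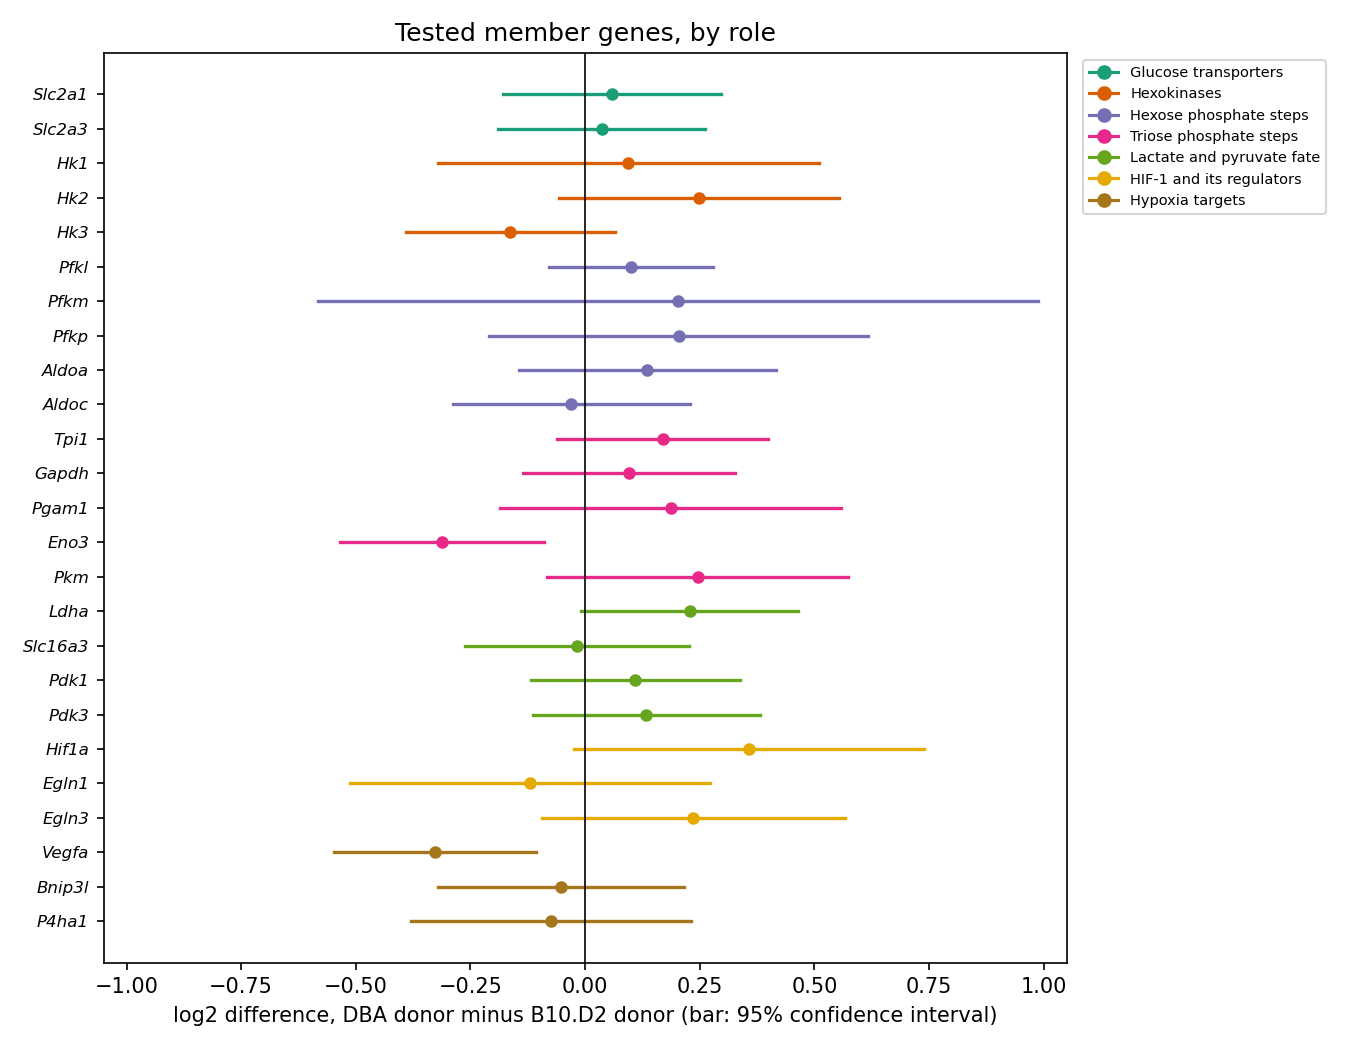
Log2 difference (DBA donor minus B10.D2 donor, quantile-normalized intensity) of each of the 25 tested genes, as a point with its 95% confidence interval, coloured by role and ordered along the pathway. The intervals of Vegfa and Eno3 lie below 0, the other 23 include 0, and Pfkm has the widest interval.

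Both glucose transporters measured lay close to no difference. Slc2a1 is the widespread glucose transporter GLUT1. It averaged 9.26 ± 0.15 in the DBA donor group, against 9.20 ± 0.14 in the B10.D2 donor group (SD, n = 4 each). Its log2 difference was 0.06 (95% interval -0.18 to 0.30). Slc2a3, the high-affinity transporter GLUT3, averaged 9.40 ± 0.16 in the DBA donor group, against 9.36 ± 0.10 in the B10.D2 donor group, a log2 difference of 0.04 (95% interval -0.19 to 0.26). The signs of both turned under median scaling (-0.15 and -0.17).

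The hexokinases, which trap glucose in the cell by phosphorylating it, differed in sign. Hk2, the isoform that activated and dividing cells induce, had values of 9.90, 9.50, 9.84 and 9.64 on DBA donor arrays and 9.76, 9.48, 9.49 and 9.15 on B10.D2 donor arrays. The groups overlapped, with 1 high array (replicate 1) and 1 low array (replicate 4) among the B10.D2 donor arrays; the log2 difference was 0.25 (SE 0.14, limma adjusted p = 0.442). Hk3, the isoform of myeloid cells, averaged 8.36 ± 0.07 in the DBA donor group, against 8.52 ± 0.18 in the B10.D2 donor group. Its log2 difference was -0.16 (95% interval -0.39 to 0.06). Hk1, the housekeeping isoform that red cells use, averaged 6.49 ± 0.36 in the DBA donor group, against 6.40 ± 0.28 in the B10.D2 donor group (log2 difference 0.09). Hk3 had a negative difference and Hk2 a positive one in every alternative tried, though that of Hk2 was 0.04 under median scaling.

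The next steps rearrange and split the hexose phosphates. Phosphofructokinase commits sugar to glycolysis and is built from liver, muscle and platelet type subunits. By its brightest probe the liver type subunit Pfkl was the steadiest gene of the set, with a within-group SD of 0.06 at percentile 3.1 of all tested genes. Its means were 9.45 ± 0.06 in the DBA donor group, against 9.35 ± 0.06 in the B10.D2 donor group. The log2 difference was 0.10 (95% interval -0.08 to 0.28), and -0.10 under median scaling. A second, dimmer Pfkl probe had SDs of 0.28 in the DBA donor group and 0.25 in the B10.D2 donor group, and a log2 difference of 0.23 (95% interval -0.13 to 0.59). The platelet type subunit Pfkp averaged 8.47 ± 0.25 in the DBA donor group, against 8.26 ± 0.38 in the B10.D2 donor group. Its log2 difference was 0.20 (95% interval -0.21 to 0.62), and a second, dimmer Pfkp probe gave 0.14 (95% interval -0.36 to 0.64). Aldolase cuts the hexose into trioses; its main isoform Aldoa had a log2 difference of 0.14 (95% interval -0.14 to 0.42) and the brain-type isoform Aldoc one of -0.03 (95% interval -0.29 to 0.23). Of the 5 genes tested in this part of the pathway 4 had a positive difference, and 0 of 5 under median scaling.

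The muscle type subunit Pfkm varied more between arrays of a group than nearly any other gene, with a within-group SD of 0.65 at percentile 99.5 of all tested genes. Its brightest probe read 8.25, 9.49, 8.95 and 9.10 on DBA donor arrays and 8.54, 8.23, 8.36 and 9.86 on B10.D2 donor arrays. A second probe read 6.66, 7.81, 7.12 and 7.40 on DBA donor arrays and 7.18, 6.995, 6.46 and 8.40 on B10.D2 donor arrays. On both probes the highest arrays of their groups were DBA donor replicate 2 and B10.D2 donor replicate 4. The third, dimmer probe was highest on them too, at 5.49 on DBA donor replicate 2 and 5.70 on B10.D2 donor replicate 4. The log2 differences of the 3 probes were 0.20, -0.01 and -0.01, and Pfkm was the only gene of the set whose tested probes differed in sign. Without B10.D2 donor replicate 4 the difference of the brightest probe was 0.57 (limma adjusted p = 0.244), and without DBA donor replicate 2 it was 0.02. The same pair of arrays had the highest mean erythroid markers, 0.47 above the mean of the 8 arrays on DBA donor replicate 2 and 0.52 above it on B10.D2 donor replicate 4, and the highest mean proliferation markers, 0.47 above on DBA donor replicate 2 and 0.30 above on B10.D2 donor replicate 4. T cell markers were lowest on these arrays (-0.33 on DBA donor replicate 2 and -0.27 on B10.D2 donor replicate 4). The haemoglobin gene Hba-a1 was at the highest normalized value, 14.64, on all 8 arrays and is left out of the sum. Summed on the linear scale and given as log2, the other 6 erythroid markers ranged from 14.20 to 14.85 on DBA donor arrays and from 14.34 to 14.92 on B10.D2 donor arrays. The part of these markers in the spread of Pfkm was not tested.

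**Figure D2:**
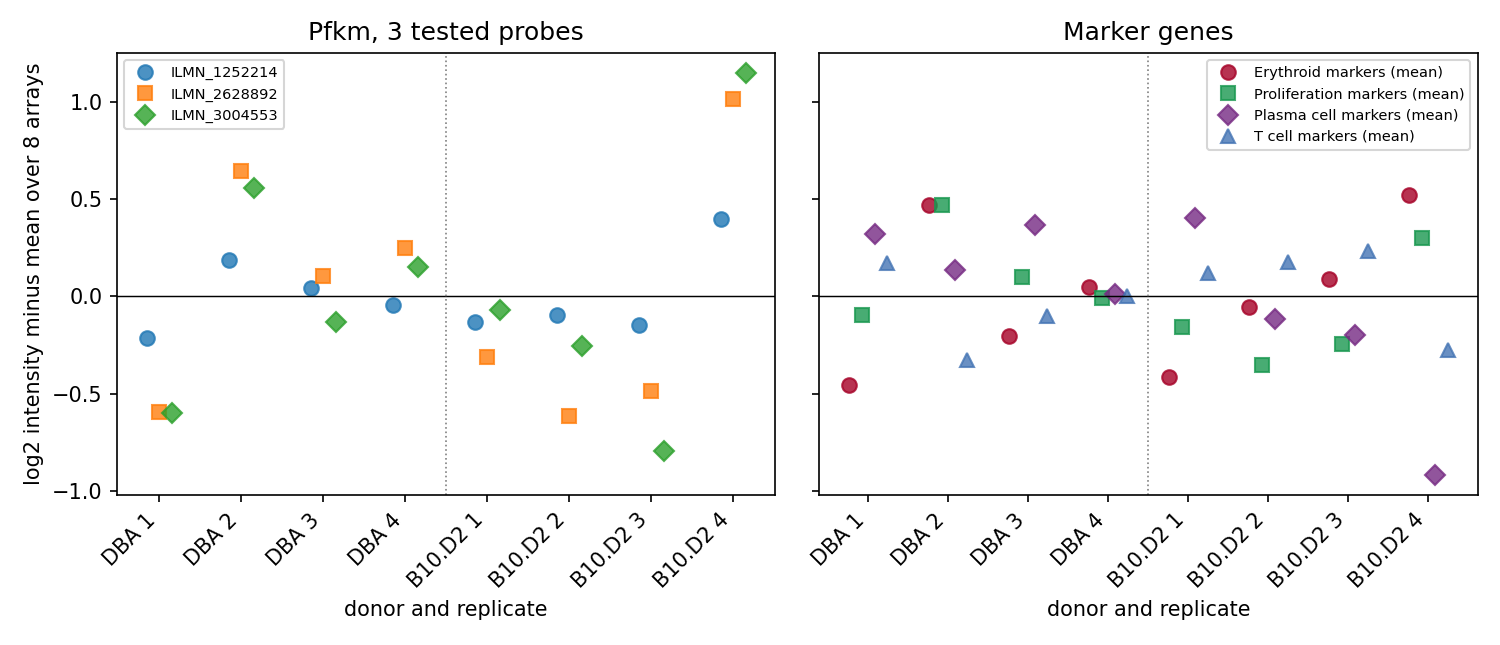
Left, the 3 tested probes of Pfkm on each array as log2 intensity minus the probe's mean over the 8 arrays; right, the mean of the erythroid, proliferation, plasma cell and T cell markers on the same scale. DBA donor replicate 2 and B10.D2 donor replicate 4 carry the highest Pfkm on each of the 3 probes, and also the highest erythroid and proliferation markers.

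The triose phosphate steps, which yield the ATP of glycolysis, held 1 of the 2 genes with a small p. Eno3, the muscle-type isoform of enolase, read 7.23, 7.15, 7.23 and 7.47 on DBA donor arrays and 7.46, 7.56, 7.56 and 7.74 on B10.D2 donor arrays. The groups met at 1 point, where DBA donor replicate 4 lay just above B10.D2 donor replicate 1. The log2 difference was -0.31 (SE 0.10, 95% interval -0.53 to -0.09, limma adjusted p = 0.224), or 1.24-fold lower in DBA donor spleens. The other genes of these steps leaned the other way and did not pass. Tpi1, which interconverts the trioses, had a log2 difference of 0.17 and its other tested probes 0.23 and 0.22. Gapdh, the NADH-forming dehydrogenase, had 0.10 and 0.22 on its 2 probes. Pgam1, the mutase before enolase, had 0.19 (95% interval -0.19 to 0.56; -0.02 under median scaling). Pkm, pyruvate kinase, the last step, read 11.49, 11.11, 11.40 and 11.40 on DBA donor arrays and 11.38, 11.17, 11.18 and 10.69 on B10.D2 donor arrays. Those groups overlapped, with B10.D2 donor replicate 4 well below the rest, and the log2 difference was 0.25 (SE 0.15, limma adjusted p = 0.480). Several of these genes, Gapdh among them, have pseudogene copies in the mouse genome, and which copies a probe binds was not examined.

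Pyruvate is then either reduced to lactate or sent to mitochondria. Ldha, the lactate dehydrogenase subunit that favours lactate formation, read 11.84, 11.76, 11.999 and 11.89 on DBA donor arrays and 11.80, 11.73, 11.66 and 11.39 on B10.D2 donor arrays. Only DBA donor replicate 2 lay below the highest B10.D2 donor array, and the log2 difference was 0.23 (SE 0.11, 95% interval -0.01 to 0.46, limma adjusted p = 0.364), positive in every alternative tried and 0.11 under median scaling. Pyruvate dehydrogenase kinases hold pyruvate back from the mitochondria by inhibiting pyruvate dehydrogenase. Pdk1 averaged 7.78 ± 0.12 in the DBA donor group, against 7.67 ± 0.14 in the B10.D2 donor group (log2 difference 0.11). Pdk3 averaged 8.48 ± 0.17 in the DBA donor group, against 8.34 ± 0.15 in the B10.D2 donor group (log2 difference 0.13). Both differences were -0.10 under median scaling. The lactate exporter Slc16a3, MCT4, was dim, detected on 3 of 4 DBA donor arrays and on 3 of 4 B10.D2 donor arrays, with a log2 difference of -0.02.

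Hif1a, the oxygen-regulated subunit of HIF-1, had the largest positive difference of the 25 genes and a wide spread. It read 7.76, 6.98, 7.31 and 7.01 on DBA donor arrays and 6.83, 7.12, 6.99 and 6.68 on B10.D2 donor arrays. DBA donor replicates 1 and 3 stood above every B10.D2 donor array, and DBA donor replicates 2 and 4 lay within their range. The log2 difference was 0.36 (SE 0.17, 95% interval -0.02 to 0.74, limma adjusted p = 0.379), or 1.28-fold, and 0.16 under median scaling. Hif1a is regulated chiefly at the level of its protein, which these arrays do not measure. The prolyl hydroxylases are themselves HIF targets in part. Egln3 was detected on 3 of 4 DBA donor and 2 of 4 B10.D2 donor arrays (log2 difference 0.24, 95% interval -0.09 to 0.57). Egln1 was detected on 2 of 4 DBA donor and 3 of 4 B10.D2 donor arrays (log2 difference -0.12, 95% interval -0.51 to 0.27). A second tested Egln1 probe was detected on 1 of 4 DBA donor and 3 of 4 B10.D2 donor arrays. It gave -0.19 (95% interval -0.50 to 0.12).

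Vegfa, the growth factor that drives vessel growth and a standard HIF target, was the one gene whose arrays separated by donor. Its brightest probe read 8.65, 8.60, 8.60 and 8.93 on DBA donor arrays and 8.97, 8.95, 9.09 and 9.08 on B10.D2 donor arrays. Every DBA donor array lay below every B10.D2 donor array, DBA donor replicate 4 by the narrowest margin. The means were 8.70 ± 0.16 in the DBA donor group, against 9.02 ± 0.07 in the B10.D2 donor group (SD, n = 4 each), and the log2 difference was -0.33 (SE 0.10, 95% interval -0.55 to -0.11, limma adjusted p = 0.210), or 1.25-fold lower in DBA donor spleens. A second, dimmer probe gave -0.26 (95% interval -0.56 to 0.04, limma adjusted p = 0.409), and the remaining listed probe was not detected on any array. Under median scaling Vegfa and Eno3 passed, with log2 differences of -0.55 (adjusted p = 0.039) and -0.52 (adjusted p = 0.046), in a setting that called 598 probes lower. The other 2 hypoxia targets tested lay close to no difference. Bnip3l, a mitophagy receptor that maturing red cells need, had a log2 difference of -0.05 (95% interval -0.32 to 0.22), and P4ha1, a collagen prolyl hydroxylase subunit, one of -0.07 (95% interval -0.38 to 0.23).

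**Figure D3:**
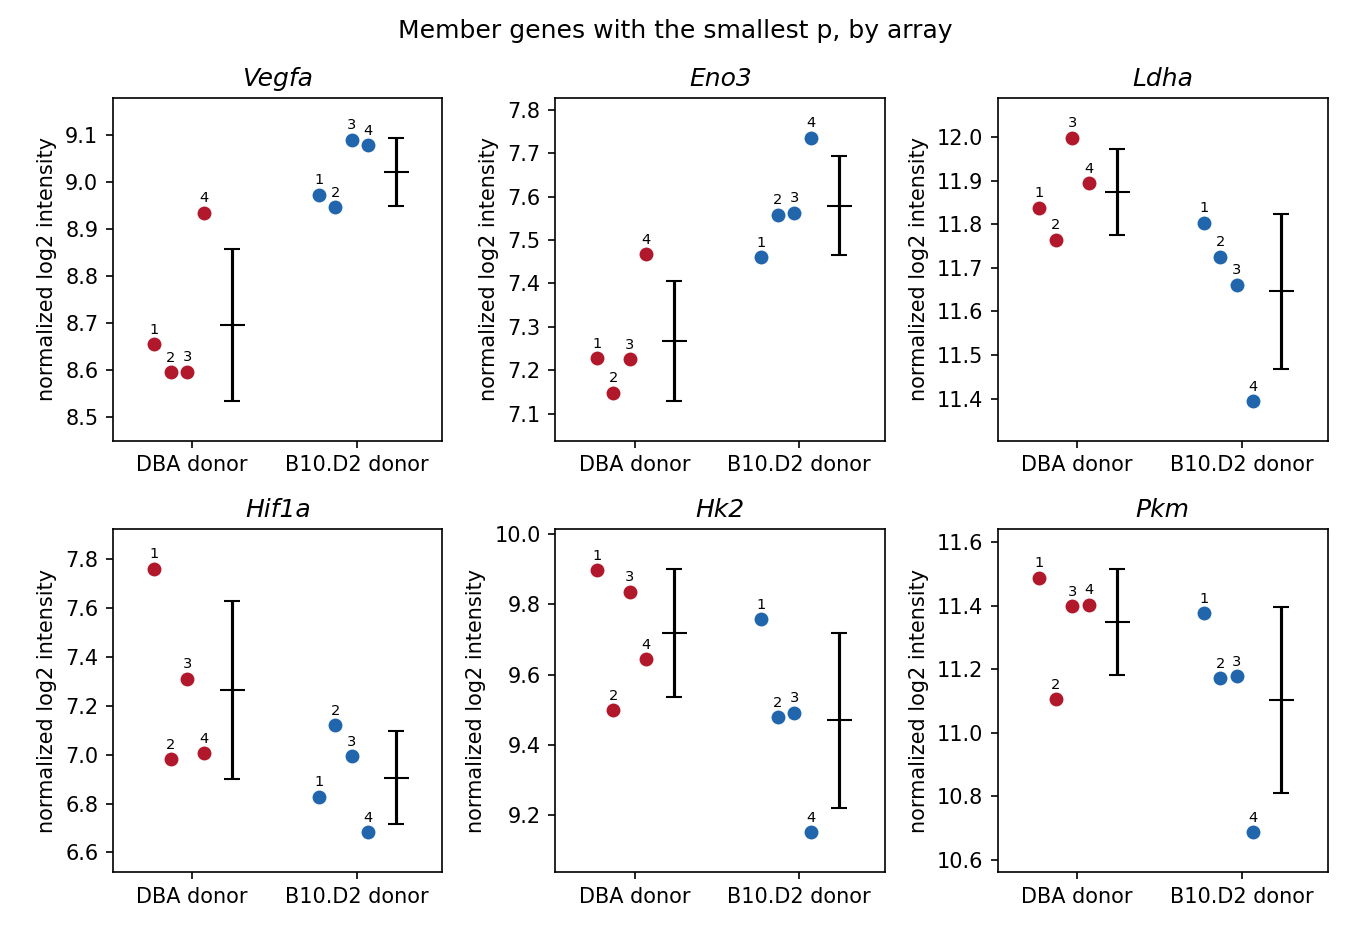
Normalized log2 intensity on each array of the 6 genes with the smallest limma p, DBA donor arrays in red and B10.D2 donor arrays in blue, numbered by replicate, with the group mean and SD beside them; each panel has its own axis, which does not start at 0. The groups separate for Vegfa alone, and B10.D2 donor replicate 4 is the lowest array for Ldha, Hif1a, Hk2 and Pkm.

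The promoter windows of 4 genes are shown as examples of what HIF-1 could read: Vegfa and Eno3, the 2 genes with the smallest p, and Ldha and Hk2, textbook HIF-1 targets. They were picked with their differences known, so their core counts are no evidence of a link to the differences. Each is the stretch of 250 bases before the gene's first listed start in RefSeq (GRCm38.p6), on the strand of the gene, and capitals mark the core letters of the HIF-binding element, ACGTG or GCGTG, on either strand; overlapping matches are joined. The coordinates are chr17:46032378-46032627 on the minus strand for Vegfa, chr11:70656926-70657175 on the plus strand for Eno3, chr7:46845554-46845803 on the plus strand for Ldha and chr6:82774455-82774704 on the minus strand for Hk2.
Vegfa: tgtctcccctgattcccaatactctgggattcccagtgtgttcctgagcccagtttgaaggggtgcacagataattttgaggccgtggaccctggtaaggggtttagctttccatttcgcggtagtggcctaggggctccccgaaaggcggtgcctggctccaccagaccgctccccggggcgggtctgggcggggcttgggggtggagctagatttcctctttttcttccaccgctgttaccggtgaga
Eno3: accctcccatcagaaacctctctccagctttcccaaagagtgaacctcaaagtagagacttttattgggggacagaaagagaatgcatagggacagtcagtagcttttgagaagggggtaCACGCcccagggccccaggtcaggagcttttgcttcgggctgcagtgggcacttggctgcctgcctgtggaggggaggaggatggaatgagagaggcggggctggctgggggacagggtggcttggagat
Ldha: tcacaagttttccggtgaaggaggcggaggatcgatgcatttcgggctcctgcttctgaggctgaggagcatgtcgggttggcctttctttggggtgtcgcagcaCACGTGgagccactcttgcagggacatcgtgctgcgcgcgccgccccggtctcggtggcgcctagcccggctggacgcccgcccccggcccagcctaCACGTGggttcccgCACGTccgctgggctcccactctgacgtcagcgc
Hk2: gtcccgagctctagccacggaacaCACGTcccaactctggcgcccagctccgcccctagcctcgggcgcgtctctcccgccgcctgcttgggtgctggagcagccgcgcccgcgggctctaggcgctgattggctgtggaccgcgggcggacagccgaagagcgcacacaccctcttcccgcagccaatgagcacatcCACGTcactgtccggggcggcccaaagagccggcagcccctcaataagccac
The Ldha window holds 3 separate stretches with a core, the Hk2 window 2, the Eno3 window 1 and the Vegfa window 0. Elsewhere in the set, Hk1, Pkm, Tpi1 and Aldoa had positive differences and 0 cores, and P4ha1 a negative one and 3. Pdk3 with 4 cores, and Pfkp and Pgam1 with 3 each, had positive differences. Whether the count of cores goes with the differences was not tested. Only the first listed start was used, and of the genes named here Vegfa, Ldha, Hk1, Pkm and Aldoa have more than 1. A match is only a match of letters, and no match says only that these letters are absent from this window. Of the 23 tested genes with a window in the table, 18 (78.3%) held a core, against 38.6% of the 27025 genes with a window. The windows of the tested genes were also richer in CpG, with a median of 13 CpG against 6 over all genes, and both cores contain a CpG.

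The array with the pancreas genes was also the one on which the 25 genes were most often lowest. B10.D2 donor replicate 4 gave the lowest of the 8 values for 10 of the 25 genes, where it gave the lowest for 17.5% of all tested genes. The 10 were Slc2a1, Hk2, Pfkp, Aldoa, Gapdh, Pgam1, Pkm, Ldha, Slc16a3 and Hif1a. DBA donor replicate 2, the array most often lowest over all tested genes (20.6%), was lowest for 4 of the 25. On B10.D2 donor replicate 4 the mean of the 7 plasma cell markers lay 0.92 below its mean over the 8 arrays. Cela1 read 8.58 to 8.96 on DBA donor arrays, and 10.87 on B10.D2 donor replicate 4 against 8.32 to 8.67 on the other B10.D2 donor arrays. The summed plasma cell markers, as log2, ranged from 14.06 to 14.39 on DBA donor arrays and from 12.97 to 14.38 on B10.D2 donor arrays. The part of the pancreas and plasma cell genes in the low values of the 10 genes was not tested.

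Leaving that array out lowers, by construction, the difference of each gene it was lowest for, so the values that follow are a description. The log2 difference was then 0.01 for Slc2a1, 0.02 for Pfkp, Pgam1 and Gapdh, 0.06 for Aldoa, 0.11 for Pkm, 0.14 for Hk2 and Ldha and 0.28 for Hif1a, and -0.10 for Slc16a3. Of the genes it was not lowest for, Eno3 had -0.26, Vegfa -0.31, Hk3 -0.11, Hk1 and Pdk3 0.19, Pdk1 0.18, Tpi1 0.16, Egln3 0.21 and Egln1 -0.17 without it. Leaving out B10.D2 donor replicate 1, the B10.D2 donor array on which Hk2, Pkm and Ldha were highest, raises the difference of those genes by construction in the same way. Then 7 of 25 genes had an unadjusted limma p under 0.05 (28%, against 14% of all tested genes), namely Hk2, Tpi1, Pkm, Ldha and Egln3 higher and Eno3 and Vegfa lower in DBA donor spleens, and the median was 0.12. Without DBA donor replicate 2 there were 6 (24%, against 11.2%). No gene of the set passed adjustment in any of the 8 fits without 1 array.

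**Figure D4:**
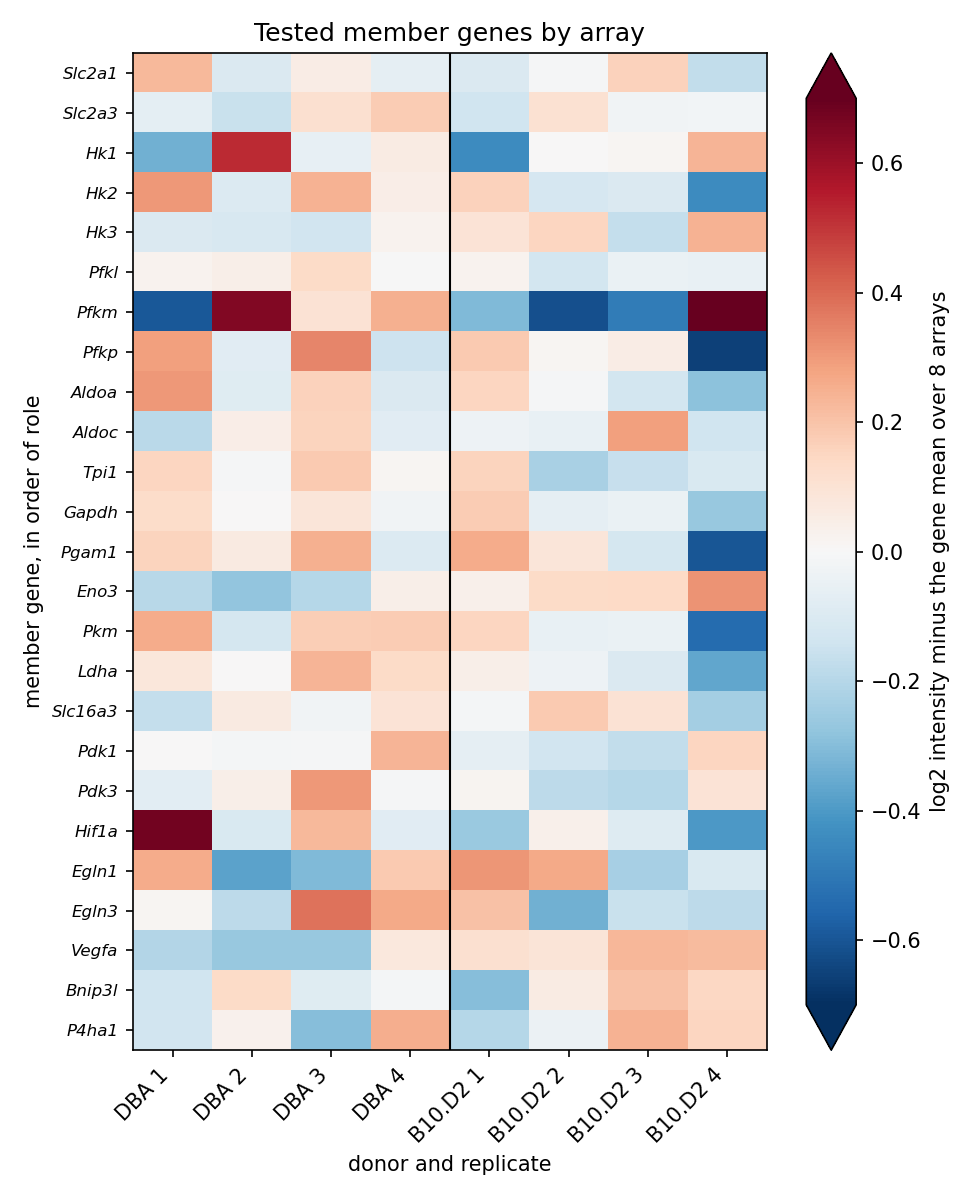
Log2 intensity of each of the 25 tested genes on each array minus the gene's mean over the 8 arrays, genes in pathway order, DBA donor arrays left of the line and B10.D2 donor arrays right of it. The column of B10.D2 donor replicate 4 is blue for 10 genes that are lowest there, Hk2, Pfkp, Pgam1, Pkm and Ldha among them, while Pfkm is highest on that array.

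Other genes around the pathway were counted the same way, and 0 of them passed. Among 9 tested of 24 further genes of glycolysis and gluconeogenesis, 3 had an unadjusted limma p under 0.05, all lower in DBA donor spleens, against 8.15% of all tested genes in that direction: Eno2, the neuronal-type enolase, with a log2 difference of -0.37, Pfkfb2, a bifunctional enzyme that tunes phosphofructokinase, with -0.31, and Adpgk, the ADP-dependent glucokinase, with -0.24. The median over the 9 was 0.01, and without B10.D2 donor replicate 4 only Eno2 (-0.42) remained at that threshold. With the member Eno3, both enolases measured had negative differences. The Eno2 probe was dim, averaging 5.04 ± 0.24 in the DBA donor group, against 5.41 ± 0.14 in the B10.D2 donor group. Among 27 tested of 36 further hypoxia and HIF pathway genes, 1 was higher and 4 were lower at that threshold, against 6.14% higher and 8.15% lower of all tested genes. Without B10.D2 donor replicate 4, 2 were higher and 4 lower, where 18.3% of all tested genes were at that threshold in either direction. Ddit4, an inhibitor of mTOR signalling that hypoxia and glucocorticoids induce, averaged 8.77 ± 0.09 in the DBA donor group, against 9.28 ± 0.36 in the B10.D2 donor group, a log2 difference of -0.51 (limma adjusted p = 0.219). With B10.D2 donor replicate 4 left out it was -0.66. Ndrg1, a stress-responsive gene, had -0.29, Plod2, a collagen lysyl hydroxylase, -0.23, and Ier3, an immediate early gene, 0.23. The remaining lower gene was Pdk4, given above. The median over the 27 was -0.03, close to that of all tested genes. Under median scaling, which called 598 probes lower over the whole array, Ddit4 and Plod2 passed as lower, and so did Pfkfb4. Of the immediate early and heat shock genes, which respond to tissue handling among other things, Fos (-0.32) and Dusp1 (-0.29) had an unadjusted p under 0.05, 2 of 7 tested against 14.3% of all tested genes; their part in the hypoxia genes was not tested.

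In the steps after pyruvate none passed either. Of 20 tested genes of pyruvate entry and the citric acid cycle, 17 had a positive difference with a median of 0.12, while under median scaling 7 of 20 were positive with a median of -0.06 (all tested genes -0.18). Unadjusted p was under 0.05 for 4 of the 20, and for the same 4 every DBA donor array lay above every B10.D2 donor array, against 6.14% and 3.69% of all tested genes in that direction. Sdhb, the iron-sulfur subunit of succinate dehydrogenase, read 9.65, 9.38, 9.85 and 9.47 on DBA donor arrays and 9.14, 9.12, 9.29 and 9.09 on B10.D2 donor arrays, a log2 difference of 0.42 (limma adjusted p = 0.184). Mdh2, mitochondrial malate dehydrogenase, had 0.36, Dlat, a subunit of the pyruvate dehydrogenase complex, 0.32, and Fh1, fumarase, 0.23. Without B10.D2 donor replicate 4 Sdhb had 0.40, Mdh2 0.37, Dlat 0.34 and Fh1 0.26. In that fit 5 of the 20 were higher at that threshold, where 18.3% of all tested genes were at it in either direction. Under median scaling Sdhb had 0.22, Mdh2 0.15, Dlat 0.15 and Fh1 0.03. At an unadjusted p under 0.05 there were then 0 of the 20 higher and 2 lower, against 32.1% of all tested genes in either direction. Of the 7 tested pentose phosphate pathway genes 0 had an unadjusted p under 0.05; Tkt, transketolase, had -0.23 and Prps1, a phosphoribosyl pyrophosphate synthetase, 0.23.

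**Figure D5:**
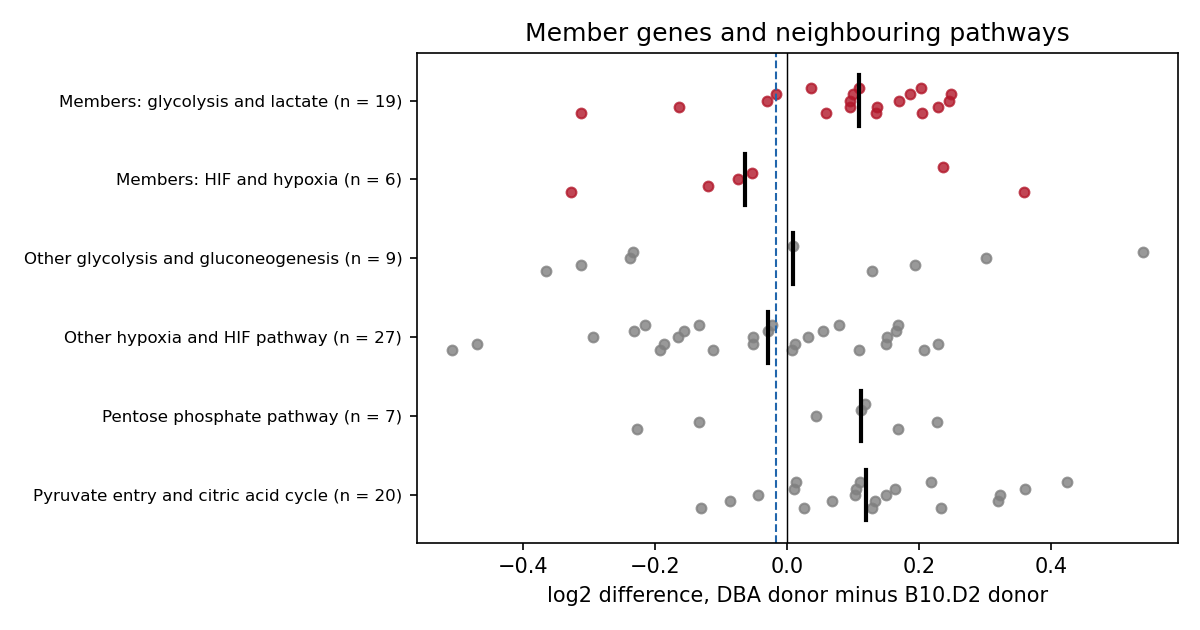
Log2 difference (DBA donor minus B10.D2 donor) of each tested gene, 1 point per gene, for the glycolysis and lactate genes and the HIF and hypoxia genes of the set (red) and for 4 neighbouring lists (grey); black bars are list medians and the dashed line is the median of all tested genes, -0.02. The citric acid cycle list has its median at 0.12 and the further hypoxia list at -0.03.

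Cell type markers, whose levels set what a whole-spleen value averages over, were summarised in the same way. The median log2 difference was 0.41 for 7 plasma cell markers (3 with unadjusted p under 0.05, against 14.3% of all tested genes) and 0.21 for 7 proliferation markers (2), and -0.19 for 6 B cell, -0.14 for 7 T cell, -0.11 for 7 erythroid, -0.08 for 8 neutrophil, -0.01 for 8 macrophage and 0.09 for 7 platelet markers. With B10.D2 donor replicate 4 left out, the plasma cell median was 0.17, the proliferation median 0.35 and the erythroid median 0.07. The B cell and T cell medians were then both -0.26. At an unadjusted p under 0.05 there were 1 of 7 plasma cell and 4 of 7 proliferation markers higher, and 3 of 6 B cell and 2 of 7 T cell markers lower. In that fit 18.3% of all tested genes were at that threshold in either direction. Under median scaling the plasma cell median was 0.34 with 1 of 7 at an unadjusted p under 0.05, the proliferation median 0.02 with 0 of 7, the B cell median -0.37 with 6 of 6 lower at that threshold and the T cell median -0.34 with 4 of 7 lower, while 32.1% of all tested genes were at it in either direction. Their part in the differences of the glycolytic genes was not tested.

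Of the 35 named genes, 10 have no value here. Bnip3, Higd1a, Pfkfb3, Pgk1 and Slc16a1 each had 1 probe that was not above background on any of the 8 arrays, the nearest being Pfkfb3 with a lowest detection p of 0.059. Pgk1 encodes phosphoglycerate kinase, a step that every glycolysing cell uses, so a probe below background does not show that the RNA was absent. Gpi1, Eno1, Ldhb, Ankrd37 and Ero1l were not listed in the annotation used and are not analysed here; Eno1 is the main enolase of most cells, so the enolase values above leave it out.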

How the data were processed

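Total RNA of 8 spleen samples was labelled with biotin and hybridised to Illumina MouseRef-8 v2.0 BeadChips, 1 array per sample, and samples were grouped by the donor strain in their titles. Per the file headers, the deposited non-normalized table holds the mean bead intensity of each probe on a linear scale and a detection p-value against the array's negative controls. GenomeStudio appears in the submitters' processing notes, without a version. For a second deposited intensity table, used as an alternative, and for the probes' genome build, the authors' steps were not given in the sources used here.

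Intensities were corrected by normexp (offset 16, background from the detection p-values), quantile-normalized and put on log2 (neqc, limma 3.58.1, R 4.3.3), which makes differences of dim probes smaller. Of the array's 25697 probes, 23978 carried a single gene symbol, 0 had several and 1719 are unnamed here; the 30 listed genes of the set matched RefSeq by Entrez number with 0 symbols changed. Probes with detection p under 0.05 on at least 4 of 8 arrays were tested, without regard to group: 12950 probes of 9028 named genes. Differences (DBA donor minus B10.D2 donor) were fitted with lmFit and eBayes, two-sided, with Benjamini-Hochberg adjustment over the 12950 probes and a threshold of 0.05. A gene is represented by its brightest tested probe. Precision is limited by the number of arrays. The fit was tested on simulated data of 12950 probes, with 50 probes changed at each fold size. It recovered 56% of 1.5-fold changes and 82% of 2-fold changes, with 8 false calls. A run without changes gave 0 false calls.

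The members and lists were chosen with earlier results of these data known. Values by array were given for genes that passed, had an unadjusted p under 0.05 or did not overlap, filled up to 6 by smallest p, and for genes whose probes differed in sign or by over 0.3. Pathway lists name up to 4 genes at an unadjusted p under 0.05, or otherwise the 2 with the smallest p. Pfkl, Pdk4 and genes named under single settings fall outside that rule and were chosen after their values were seen. Markers named singly, pancreas genes included, were too. Promoter windows are RefSeq's (GRCm38.p6). Alternatives covered background correction, offset, normalization, source table, filter, probe summary, variance model, array weights, replicate block, ordinary statistic and leaving out each array. Python 3.11.15 and matplotlib 3.10.9 drew the figures.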

Additional observations from a re-analysis of the deposited data

Results flagged for a closer look

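The clearest signal outside the comparison was on B10.D2 donor replicate 4, where the mean of the 8 pancreas markers too dim elsewhere to be tested was 9.94, against 4.47 to 4.64 on the other arrays. Cela1, the tested pancreas marker, read 10.87 there, against 8.32 to 8.67 on the other B10.D2 donor arrays, and stood apart by Dixon's criterion for 4 values. In all, 6 of 96 groups of 4 values examined (each tested gene and the mean of each list, per donor) held 1 array that stood apart by that criterion, where chance alone would give about 4.8. Pdk1 read 7.96 on DBA donor replicate 4, against 7.71 to 7.73 on the other DBA donor arrays. The mean of the 2 glucose transporters was 9.18 on DBA donor replicate 2, against 9.36 to 9.39 on the other DBA donor arrays. The mean of the further glycolysis and gluconeogenesis genes was 6.70 on DBA donor replicate 2, against 6.75 on the other DBA donor arrays. The mean of the fat markers was 8.13 on DBA donor replicate 3, against 7.83 to 7.88 on the other DBA donor arrays. The mean of the immediate early and heat shock genes was 8.95 on B10.D2 donor replicate 1, against 8.78 on the other B10.D2 donor arrays.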

How the results depend on the processing

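The count of 0 genes of the set passing held in 20 of 21 alternatives, and median scaling called 2, Eno3 and Vegfa; the cause was not tested. Of the 25 tested genes, 11 kept the sign of their difference in all alternatives that gave them a value, Vegfa, Eno3, Hk2, Hk3, Pkm, Ldha and Hif1a among them, and 14 changed it in at least 1. The median difference of the set was 0.0999, became -0.0744 under median scaling and ranged from 0.0363 to 0.1248 when 1 array was left out, the lowest without B10.D2 donor replicate 4. The number of probes called over the whole array was 9. It was 4 with an offset of 1, 625 under median scaling, 5 from the authors' second table, 38 with array weights, and 0 with the stricter filter, without a filter and with the ordinary per-probe statistic. Leaving out 1 array gave 0 to 9, with 0 without DBA donor replicate 3, without DBA donor replicate 4 and without B10.D2 donor replicate 2. In the pathway and marker lists 0 genes passed, and 5 under median scaling (Ddit4, Plod2, Pfkfb4, Cd79a and Thy1). Arrays of the 2 groups share replicate numbers in the labels, but their deviations from the group means correlated at 0.34, -0.35, 0.05 and 0.04 for same-numbered arrays, so the numbers were not taken as pairs. With the replicate number as a block, 7 probes passed over the whole array, 0 genes of the set passed and 2 had an unadjusted p under 0.05, and the median difference of the set was 0.0999. Slc16a3, Egln1 and Egln3 had no value under the stricter filter. Dim probes limit what can be said of Slc16a3, Egln1 and Egln3 most, and of Eno2 outside the set.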
